A study of Mus musculus with 14 samples.

Results

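The genes described here are the heat shock protein and J-protein genes whose transcripts were counted in mouse hearts that lose Fam210a in cardiomyocytes. They were chosen by name: symbols that begin Hspa, Hspb, Hsph or Dnaja, Dnajb or Dnajc with a number, or Hsp90a, that reached 10 counts in at least 3 libraries of both count tables. Of the 53735 symbols shared by the tables, 72 matched, 3 were left out by name (Hspa5, Hspa9 and Hspa9-ps1), 11 did not reach the count minimum and 58 remained. These 58 comprised 7 small heat shock protein genes, 11 genes of the 70 kDa family, 1 of the 110 kDa family, 2 of the 90 kDa family, and 37 J-protein genes, of which 4 were of class A, 9 of class B and 24 of class C. The set is not wholly cytosolic: 6 of the 58 products were assigned here to the endoplasmic reticulum and 5 to mitochondria. These lists may leave out further members of either compartment.

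Just inside the count minimum, Hspa1b had 10 or more counts in 5 of the 6 late libraries. Just outside it, Dnajb3 and Dnajc6 each reached 10 counts in 2 late libraries, with maxima of 16 and 12 counts. The other 9 that missed it were Dnajb7, Dnajb8, Dnajb13, Dnajc5b, Dnajc5g, Dnajc22, Hspb9 and the pseudogene symbols Dnaja1-ps and Dnajc19-ps. All 58 genes also passed the low-count filter of the test in both tables.

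Hearts of male C57BL/6 mice were profiled by RNA-seq at about 5 weeks (early) and about 10 weeks (late) after tamoxifen. The cKO mice were Fam210a fl/fl, alphaMHC MCM/+, so that a tamoxifen-inducible Cre driven by the Myh6 promoter removes Fam210a, which encodes a mitochondrial membrane protein, in cardiomyocytes. The controls carried the same alphaMHC MCM/+ Cre without the floxed alleles and also received tamoxifen, and the other cell types of a cKO heart keep Fam210a. There were 4 cKO and 4 control hearts early, and 3 cKO and 3 control hearts late. The submitters chose the times because heart function was described as normal at the early time and severely impaired at the late one.

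Heat shock proteins are molecular chaperones that bind proteins which are unfolded or newly made. Small heat shock proteins hold unfolded proteins without using ATP, whereas Hsp70 proteins bind and release them in an ATP cycle that J-proteins start and that exchange factors such as the Hsp110 proteins complete; Hsp90 proteins act later on kinases, steroid receptors and myosin. A few members, above all Hspa1a and Hspa1b, are switched on by the transcription factor HSF1 under protein stress, while others such as Hspa8 and Hsp90ab1 are made constantly. Heart muscle is rich in small heat shock proteins, several of which sit at the Z-disc of the sarcomere.

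Libraries held 15657298 to 19466469 counts early and 29989076 to 35750964 counts late. Fam210a itself, counted over the whole gene, had 158, 135, 139.8 and 150.4 CPM in early cKO hearts, against 173, 178, 166 and 165 CPM in early controls (log2 fold change -0.22, SE 0.06, adjusted p = 0.17 by edgeR's quasi-likelihood test). It had 65.1, 70.8 and 64.6 CPM in late cKO hearts, against 131, 120.1 and 134 CPM in late controls (log2 fold change -0.94, SE 0.11, adjusted p = 6.5e-05). The cKO hearts were below all controls at both times, and only the late difference passed the test. The genotype field of early cKO replicate 4 gives the control genotype while its title and description give cKO, so results were also computed with it as a control. Late cKO replicate 3 stood apart: the mean chi-square per gene of its counts was 107 and 101 against the other late cKO hearts, which had 21.5 between them. Exons of 22 of the 58 genes overlap another annotated gene, 19 of them on the opposite strand, and the kit does not mark strand. Early cKO replicate 2 and late control replicate 3 carried the atrial transcript Bmp10, at 165 and 104 CPM. CPM values are counts per 1000000 of the library size after TMM scaling within each table, and levels are not compared between the tables. Each sample is labelled as a heart, but nothing states that every one came from a separate animal, so the p-values speak only of the spread among these samples, which may be technical.

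At the early time, when heart function was described as normal, none of the 58 genes passed the test (0 called at an adjusted p under 0.05, where 0.613% of the 13529 genes tested were called). DESeq2 also called 0. Of all genes tested 0.517% were called higher and 0.0961% lower. At an unadjusted p under 0.05 there were 4 higher and 6 lower, where 10.3% of all genes tested had such a p. The groups did not overlap for 5 of the 58, where 5.65% of all genes tested showed no overlap. The median log2 fold change was 0.02 over the 58 genes and 0.00 over all genes tested.

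The largest early fold changes among the 58 genes were those of Hspa1a and Hspa1b, the stress-inducible Hsp70 genes. Hspa1a had 1.71, 17.2, 11.0 and 2.72 CPM in early cKO hearts, against 4.01, 4.85, 2.69 and 2.02 CPM in early controls (log2 fold change 1.29, SE 0.57, adjusted p = 0.468). Its neighbouring copy Hspa1b had 1.39, 14.3, 8.52 and 3.25 CPM in early cKO hearts, against 3.89, 5.16, 2.37 and 2.31 CPM in early controls (log2 fold change 1.02, SE 0.53, adjusted p = 0.535). In both genes cKO replicates 2 and 3 were above every control and cKO replicates 1 and 4 lay within or below the control range, so the groups overlapped. Without cKO replicate 2 the log2 fold change was 0.65 for Hspa1a (adjusted p = 0.866) and 0.40 for Hspa1b (adjusted p = 0.928).

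The copies cannot be fully separated by these reads. Their longest open reading frames in the annotated transcripts, of 1926 bases in Hspa1a and 1929 bases in Hspa1b, differed at 36 of the 1926 positions compared without gaps, and their longest identical run was 638 bases, against a read length of 100 nt. The sum of the pair does not depend on how reads were split between the copies, although reads dropped for matching both are missing from it. That sum was 3.11, 31.6, 19.5 and 5.97 CPM in early cKO hearts, against 7.90, 10.0, 5.06 and 4.33 CPM in early controls. It too was high in cKO replicates 2 and 3 and not in replicates 1 and 4.

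Of the other members, 4 were chosen here after their values were seen because HSF1 is known to induce them. These 4 were also high in cKO replicates 2 and 3. Hsp90aa1, the inducible Hsp90 gene, had 67.1, 131, 108 and 73.1 CPM in early cKO hearts, against 80.6, 82.8, 52.8 and 73.1 CPM in early controls (log2 fold change 0.39, SE 0.19, adjusted p = 0.518). Hsph1, an Hsp110 exchange factor, had 62.9, 118, 107 and 68.2 CPM in early cKO hearts, against 86.5, 92.5, 62.7 and 81.9 CPM in early controls (log2 fold change 0.14, SE 0.18, adjusted p = 0.857). Dnajb1, the main inducible J-protein partner of Hsp70, had 26.1, 42.5, 40.8 and 24.8 CPM in early cKO hearts, against 28.4, 27.0, 19.6 and 21.2 CPM in early controls (log2 fold change 0.48, SE 0.18, adjusted p = 0.372). In all of these genes replicates 2 and 3 were the highest of the 8 early hearts, and the other cKO hearts lay inside the control range. Dnaja1, a farnesylated J-protein partner of Hsc70, was likewise highest in those hearts, with 32.2, 52.3, 48.4 and 33.5 CPM in early cKO hearts, against 42.8, 45.4, 30.1 and 33.5 CPM in early controls (log2 fold change 0.14, SE 0.17, adjusted p = 0.846). These genes were not the only ones. Hspb1 had 69.2, 97.4, 102 and 75.8 CPM in early cKO hearts, against 82.9, 76.6, 71.3 and 84.2 CPM in early controls. Hspa8 had 630, 777, 773 and 673 CPM in early cKO hearts, against 736, 733, 666 and 761 CPM in early controls. Both were highest in cKO replicates 2 and 3, as were Hspa4, Dnajb2 and Dnajc2.

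Transcripts that can vary with handling or with the tissue sampled are given beside these. The immediate early gene Fos had 10.3, 15.1, 3.89 and 2.54 CPM in early cKO hearts, against 2.15, 3.19, 1.54 and 2.13 CPM in early controls, highest in cKO replicates 1 and 2. All 8 immediate early genes examined had a positive early log2 fold change, 6 of them with an unadjusted p under 0.05 and 0 called. Of all genes tested 10.3% had such an unadjusted p and 0.613% were called. The summed adipocyte markers ranged over 1.20 to 12.9 CPM in early cKO hearts and 0.237 to 1.68 CPM in early controls, and the summed atrial markers over 57.6 to 1480.0 CPM in early cKO hearts and 62.2 to 334 CPM in early controls. By heart the summed adipocyte markers were 1.20, 7.64, 12.9 and 8.62 CPM in early cKO hearts, against 1.68, 0.956, 0.577 and 0.237 CPM in early controls, with cKO replicates 2, 3 and 4 above every control. Of the 4 adipocyte markers Adipoq was highest in cKO replicates 2 and 3, Plin1 in replicate 4 and Cfd in replicates 3 and 4, and Lep was at 0 in 6 of the 8 early hearts. By heart the summed atrial markers were 57.6, 1480, 165 and 223 CPM in early cKO hearts, against 334, 105, 62.2 and 171 CPM in early controls. The highest sum was that of cKO replicate 2. Nppa made up most of the atrial sum in every early heart, at 875 CPM in cKO replicate 2. Of the atrial markers Bmp10 was at 0 in 6 of the 8. The part of tissue sampling and handling in the early values was not tested.

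**Figure D1:**
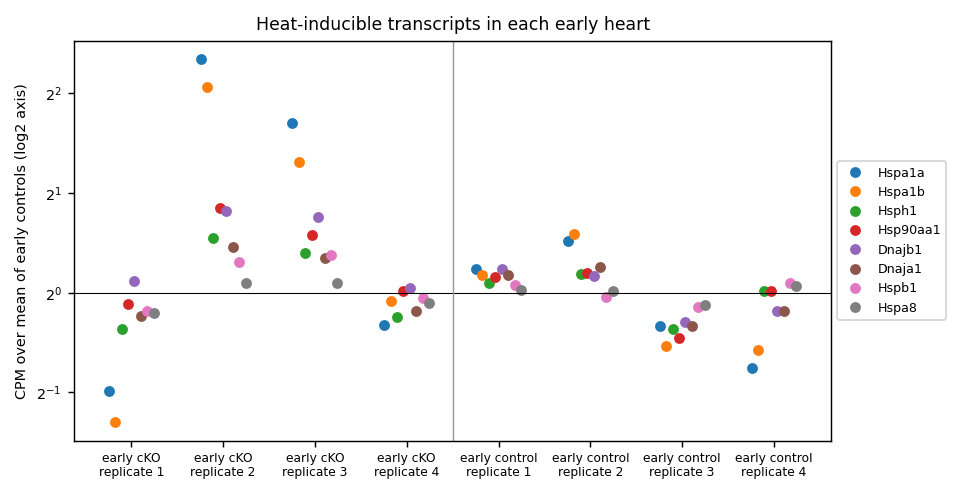
CPM of 8 heat shock and J-protein genes in each early heart, divided by the mean of the 4 early controls and drawn on a log2 axis; each point is 1 gene in 1 heart, with cKO hearts on the left and controls on the right. Points for Hspa1a and Hspa1b lie far above 1 in cKO replicates 2 and 3 and below 1 in cKO replicate 1. The remaining genes lie above 1 by less in cKO replicates 2 and 3, and all but Dnajb1 lie below 1 in cKO replicate 1.

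Promoter sequences are shown for the genes whose values turn on inducibility (Hspa1a, Hspa1b and Hsph1) and for a pair of genes that rose late (Hspb1 and Dnajb6). They cover 250 bases before to 50 bases after a RefSeq start site in GRCm38.p6, 5′ to 3′ on the gene's strand, and capitals mark GAANNTTC or TTCNNGAA, the pair of inverted units from which heat shock elements are built. Hspa1a is at chr17:34972107-34972406 on the minus strand, Hspa1b at chr17:34959189-34959488 on the minus strand, Hsph1 at chr5:149636266-149636565 on the minus strand, Hspb1 at chr5:135887669-135887968 on the plus strand and Dnajb6 at chr5:29735648-29735947 on the plus strand.
Hspa1a: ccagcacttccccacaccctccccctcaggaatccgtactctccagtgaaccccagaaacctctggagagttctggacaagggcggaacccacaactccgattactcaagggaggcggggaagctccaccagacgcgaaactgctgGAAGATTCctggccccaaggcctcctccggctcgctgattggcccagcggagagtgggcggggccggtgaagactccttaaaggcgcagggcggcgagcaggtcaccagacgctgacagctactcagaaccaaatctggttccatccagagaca
Hspa1b: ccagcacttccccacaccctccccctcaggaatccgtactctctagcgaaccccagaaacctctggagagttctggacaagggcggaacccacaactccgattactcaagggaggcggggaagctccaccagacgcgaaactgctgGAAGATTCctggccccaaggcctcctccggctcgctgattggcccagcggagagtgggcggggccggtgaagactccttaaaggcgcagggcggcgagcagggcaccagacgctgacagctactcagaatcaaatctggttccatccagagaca
Hsph1: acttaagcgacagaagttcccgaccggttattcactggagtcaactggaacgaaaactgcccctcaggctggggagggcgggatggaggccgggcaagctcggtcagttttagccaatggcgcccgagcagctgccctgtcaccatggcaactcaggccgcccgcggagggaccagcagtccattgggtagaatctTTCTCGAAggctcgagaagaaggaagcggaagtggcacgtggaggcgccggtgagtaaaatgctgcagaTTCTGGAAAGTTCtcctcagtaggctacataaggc
Hspb1: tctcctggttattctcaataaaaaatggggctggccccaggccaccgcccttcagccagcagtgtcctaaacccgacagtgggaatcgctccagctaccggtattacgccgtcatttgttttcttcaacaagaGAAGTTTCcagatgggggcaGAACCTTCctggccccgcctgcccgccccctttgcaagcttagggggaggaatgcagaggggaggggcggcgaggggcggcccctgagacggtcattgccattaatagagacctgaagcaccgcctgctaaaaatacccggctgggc
Dnajb6: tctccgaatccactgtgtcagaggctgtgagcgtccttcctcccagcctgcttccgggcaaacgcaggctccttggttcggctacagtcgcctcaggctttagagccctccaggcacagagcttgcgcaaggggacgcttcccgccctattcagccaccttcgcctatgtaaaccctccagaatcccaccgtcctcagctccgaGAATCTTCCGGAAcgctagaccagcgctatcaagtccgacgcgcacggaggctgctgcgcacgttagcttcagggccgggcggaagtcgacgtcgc

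The Hspa1a and Hspa1b windows differed at 4 of 300 positions. Among the 47 members with an entry in the promoter table, 13 (27.7%) held the paired motif in at least 1 of their start-site windows, against 17% of 27018 genes. The motif is its own reverse complement, so both strands were searched. The 3-unit form, GAANNTTCNNGAA or TTCNNGAANNTTC, contains the paired motif; it was found in Dnajb6 and Hsph1 (2 of 47, 4.26%), against 0.663% of all genes. Genes with several annotated starts have more windows, and over single windows the shares were 15.1% of 32841 for the paired motif and 0.603% for the 3-unit form. A match describes letters and is not a measured binding site. The members outside these 47 were Dnajc2, Dnajc5, Dnajc11, Dnajc12, Dnajc18, Dnajc30, Hsp90aa1, Hsp90ab1, Hspa8, Hspa13 and Hspb2.

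Other early differences were smaller. Dnajc18, a relative of Dnajb12 and Dnajb14, had 37.3, 38.0, 38.3 and 38.0 CPM in early cKO hearts, against 33.7, 33.2, 34.9 and 32.4 CPM in early controls (log2 fold change 0.18, SE 0.06, adjusted p = 0.294). Hspa12b, a distant Hsp70 relative expressed in endothelium, had 37.5, 28.7, 36.8 and 39.2 CPM in early cKO hearts, against 40.5, 41.2, 41.7 and 51.6 CPM in early controls (log2 fold change -0.30, SE 0.10, adjusted p = 0.339). Dnajc28 had 45.6, 46.7, 44.9 and 45.4 CPM in early cKO hearts, against 50.8, 50.5, 50.3 and 48.5 CPM in early controls (log2 fold change -0.13, SE 0.05, adjusted p = 0.402). The cKO and control values of these genes did not overlap, with the cKO hearts higher for Dnajc18 and lower for Hspa12b and Dnajc28, but none passed the test. Dnajc4 and Dnajc11 likewise did not overlap, with cKO lower. The highest-expressed small heat shock gene, Hspb7, averaged 1821 ± 201 CPM in early cKO hearts and 1795 ± 90.3 CPM in early controls (SD, n = 4 each), and its groups overlapped.

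The early count depended on the filter. With no filter on low counts edgeR called Hspa1a (adjusted p = 0.00383), Hspa1b (adjusted p = 0.0279), Hsp90aa1 (adjusted p = 0.0377) and Dnajb1 (adjusted p = 0.00655) higher and Hspa12b lower, among 388 of 25198 genes called (1.54%). The Hspa1a log2 fold change in that fit was 1.28, and DESeq2 gave Hspa1a an adjusted p of 0.724. With early cKO replicate 4 taken as a control the Hspa1a log2 fold change was 1.63 (adjusted p = 0.132) and 0 of the 58 genes were called.

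At the late time 27 of the 58 genes rose in cKO hearts, 13 fell and 18 did not pass the test. Of all 14942 genes tested at this time 65.0% were called, so 40 calls among 58 genes is close to the background. The members that rose were 46.6% of the 58, against 31.8% of all genes tested, and those that fell were 22.4%, against 33.2%. The members' median log2 fold change was 0.22, against -0.02 over all genes tested, and the groups did not overlap for 29 members with cKO higher and 15 with cKO lower, where 69.8% of all genes showed no overlap. Without late cKO replicate 3, 27 members were called higher and 14 lower. In simulated late data, changes of 1.5-fold were found in 25% of cases and changes of 3-fold in 92%. Far fewer genes were changed in that simulation than were called here, so these shares do not measure the sensitivity of the late calls.

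The families differed in their split of higher and lower calls, which was not tested between them, and most hold few genes. Of all genes tested 31.8% were called higher and 33.2% lower. Among small heat shock genes 4 of 7 rose and 0 fell (median log2 fold change 0.68). In the 70 kDa family 4 of 11 rose and 4 fell (36.4% each, near the shares of all genes, median -0.17), and the single 110 kDa gene fell. Of the 90 kDa pair 1 rose. Of the 37 J-protein genes 18 rose and 8 fell (median 0.30): 1 rose and 1 fell of 4 in class A, 6 rose and 1 fell of 9 in class B, and 11 rose and 6 fell of 24 in class C.

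**Figure D2:**
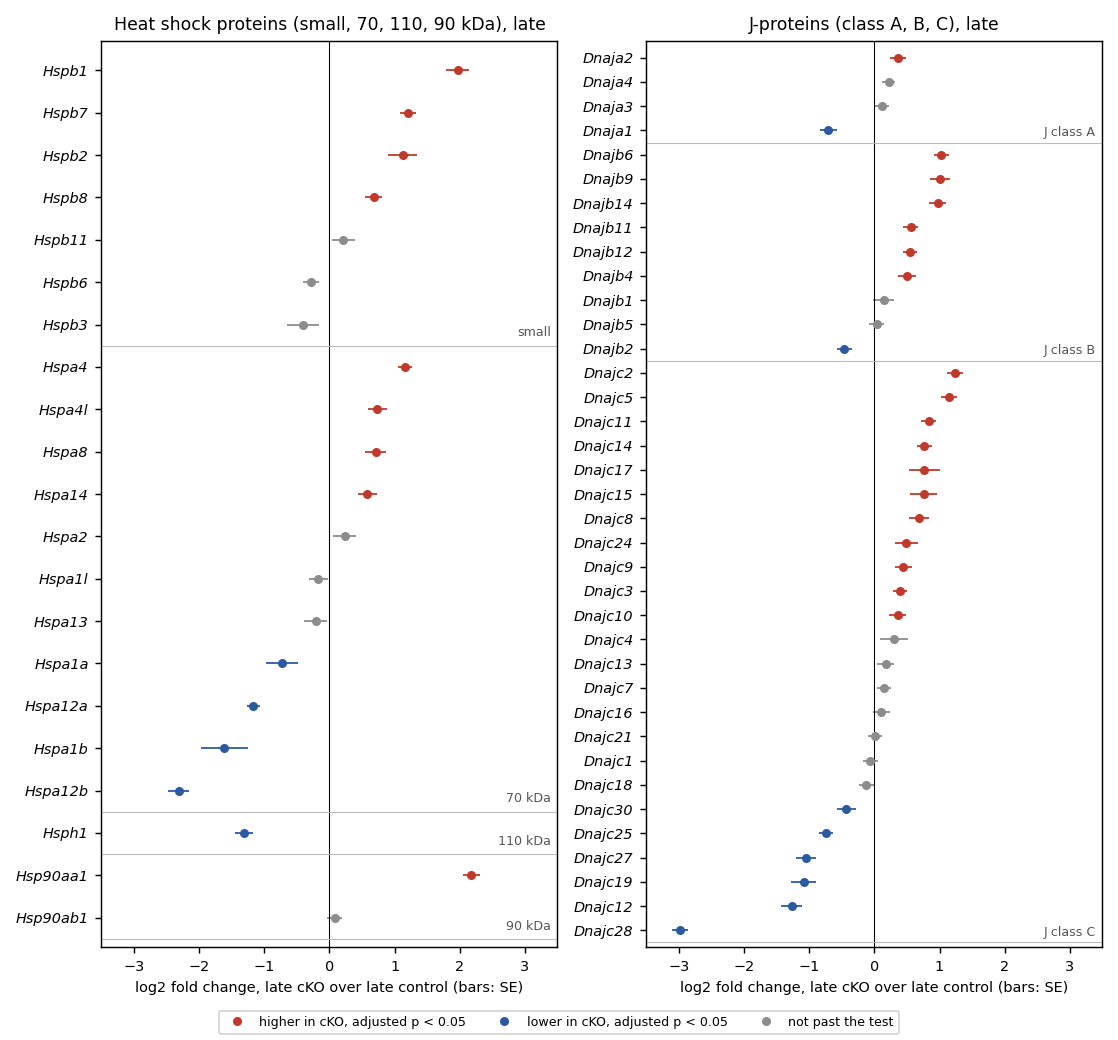
Log2 fold change of late cKO over late control hearts for the 21 heat shock protein genes (left) and the 37 J-protein genes (right), ordered by size within each family; points are edgeR estimates and bars their SE. Values run from -2.98 for Dnajc28 to 2.18 for Hsp90aa1, with 27 genes higher, 13 lower and 18 not past the test.

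Among the small heat shock proteins, Hspb1 (Hsp25), which binds unfolded proteins and actin filaments, rose most. It had 415, 457 and 641 CPM in late cKO hearts, against 139.6, 130.4 and 116 CPM in late controls (log2 fold change 1.97, SE 0.18, adjusted p = 1.72e-05), a 3.92-fold difference. Every cKO heart was far above every control, and cKO replicate 3 was the highest. Hspb7, a small heat shock protein of heart and skeletal muscle that binds sarcomere proteins, had 5300.2, 4788 and 5008 CPM in late cKO hearts, against 2231, 2211 and 2097 CPM in late controls (log2 fold change 1.21, SE 0.12, adjusted p = 3.79e-05). Hspb8, which works with Bag3 in clearing damaged sarcomere proteins, had 780.0, 824 and 863 CPM in late cKO hearts, against 557, 537 and 445 CPM in late controls (log2 fold change 0.68, SE 0.13, adjusted p = 0.00135). Both rose in all 3 cKO hearts with no overlap. Hspb2, a muscle small heat shock protein, had 117, 113 and 198 CPM in late cKO hearts, against 77.1, 63.0 and 56.6 CPM in late controls (log2 fold change 1.12, SE 0.22, adjusted p = 0.00189). It rose with no overlap, again highest in cKO replicate 3.

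Hspb2 lies head to head with Cryab, and 252 of its 834 annotated exon bases are shared with that gene on the opposite strand. The library kit does not mark strand, so reads there cannot be assigned, and Cryab itself did not pass the test (1541, 1365 and 2011 CPM in late cKO hearts, against 1813, 1657 and 1454 CPM in late controls, log2 fold change -0.00, SE 0.17, adjusted p = 0.992). Hspb6 (Hsp20), a muscle protein phosphorylated by protein kinase A, had 733, 706 and 729 CPM in late cKO hearts, against 974, 869 and 799 CPM in late controls (log2 fold change -0.28, SE 0.12, adjusted p = 0.0635). Its cKO hearts were all below the controls, but it did not pass the test. Hspb3 (log2 fold change -0.41, adjusted p = 0.173) and Hspb11, known as the intraflagellar transport protein IFT25 (log2 fold change 0.22, adjusted p = 0.295), also missed the threshold. Hspb3 passed without cKO replicate 3 or without control replicate 3 (adjusted p = 0.0404 and 0.0377).

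Within the 70 kDa family the constitutive Hspa8 and the exchange factors rose while the inducible pair and the Hspa12 genes fell. Hspa8 (Hsc70), the main constitutive cytosolic Hsp70, had 1453, 1596 and 2130.4 CPM in late cKO hearts, against 1054, 1018 and 1099 CPM in late controls (log2 fold change 0.71, SE 0.16, adjusted p = 0.00371). Hspa4 (Apg-2), a relative of the Hsp110 exchange factors, had 389, 359.7 and 412 CPM in late cKO hearts, against 168, 170.3 and 179.7 CPM in late controls (log2 fold change 1.16, SE 0.11, adjusted p = 2.33e-05). Its close relative Hspa4l had 85.5, 68.7 and 59.0 CPM in late cKO hearts, against 42.4, 39.6 and 45.8 CPM in late controls (log2 fold change 0.74, SE 0.15, adjusted p = 0.00207). All 3 were higher in every cKO heart than in every control. Hspa14, the Hsp70 partner of a J-protein at the ribosome, rose by a log2 fold change of 0.58 (adjusted p = 0.00755). That J-protein, Dnajc2, rose as well (log2 fold change 1.24, SE 0.13, adjusted p = 3.7e-05), with 59.3, 52.6 and 66.3 CPM in late cKO hearts, against 25.9, 26.6 and 23.2 CPM in late controls.

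Hspa12b fell furthest in the family, with 8.37, 11.1 and 12.0 CPM in late cKO hearts, against 55.2, 55.8 and 45.7 CPM in late controls (log2 fold change -2.32, SE 0.16, adjusted p = 4.62e-06), a 4.98-fold lower level. Hspa12a had 13.1, 13.2 and 13.0 CPM in late cKO hearts, against 29.0, 29.6 and 29.5 CPM in late controls (log2 fold change -1.17, SE 0.11, adjusted p = 1.72e-05). Neither overlapped between groups. Hspa12b is known from endothelial cells, and the endothelial markers fell too: 5 of 5 (Pecam1, Cdh5, Kdr, Tie1 and Emcn) were called lower and their summed level was 327 to 391 CPM in late cKO hearts and 781 to 964 CPM in late controls, with none of them at 0. Of all genes tested 33.2% were called lower. Of the other lists, 4 of 4 smooth muscle and pericyte markers and 4 of 5 macrophage markers fell, and 2 of 6 cardiomyocyte markers fell. Their summed levels were 399.7 to 551 CPM in late cKO hearts and 961 to 1032 CPM in late controls for smooth muscle, 91.7 to 113 CPM in late cKO hearts and 155 to 166 CPM in late controls for macrophages and 56474 to 67789 CPM in late cKO hearts and 59298 to 67863 CPM in late controls for cardiomyocytes. Of the remaining lists, 1 fibroblast marker rose and 2 fell of 5, 3 of 3 erythroid markers rose, 1 atrial marker rose and 1 fell of 5, and 1 of 2 adipocyte markers tested fell. The part of these cell types in the fall of Hspa12b was not tested. In whole hearts, fewer cells of a type and less RNA per cell cannot be told apart.

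The inducible pair was low at the late time. Hspa1a had 1.05, 1.88 and 1.71 CPM in late cKO hearts, against 2.41, 2.51 and 2.76 CPM in late controls (log2 fold change -0.73, SE 0.25, adjusted p = 0.0275), from 35 to 66 counts a cKO library and 74 to 92 counts a control library. Hspa1b had 0.752, 0.654 and 0.240 CPM in late cKO hearts, against 1.47, 1.76 and 1.89 CPM in late controls (log2 fold change -1.61, SE 0.36, adjusted p = 0.00365). The sum of the copies was 1.81, 2.53 and 1.95 CPM in late cKO hearts, against 3.88, 4.28 and 4.65 CPM in late controls. No cKO heart reached the lowest control in either copy or in the sum. Beside them, 5 of 8 immediate early genes fell late and 1 (Atf3) rose, where 33.2% of all genes tested were called lower and 31.8% higher. The relation of the pair to these genes was not tested. The Hspa1a call was lost without cKO replicate 1 (adjusted p = 0.0719), without any one of the controls (adjusted p = 0.0522 to 0.0841) and in a fit over all 14 libraries (adjusted p = 0.316). Hspa1l, Hspa2 and Hspa13, the last a protein of the endoplasmic reticulum, did not pass the test.

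Hsph1 (Hsp105), the only gene of the 110 kDa family, moved opposite to its relatives Hspa4 and Hspa4l. It had 23.1, 23.3 and 19.8 CPM in late cKO hearts, against 51.1, 49.9 and 64.0 CPM in late controls (log2 fold change -1.32, SE 0.14, adjusted p = 4.11e-05), with no overlap between groups. Hsph1 holds the 3-unit motif in its promoter window, beginning 15 and 36 bases past its annotated start sites. Dnajb6, which rose, holds it beginning at -46 and -127 from its annotated start sites. Among the 13 members with a paired motif, 5 rose, 5 fell and 3 did not pass the test (median log2 fold change -0.28). Among the 34 without it 16 rose, 6 fell and 12 did not pass (median 0.27). Of all genes tested 31.8% were called higher and 33.2% lower, and the split by motif was not tested.

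The 90 kDa genes diverged. Hsp90aa1, the inducible form, had 311, 338 and 309.6 CPM in late cKO hearts, against 62.4, 69.4 and 80.1 CPM in late controls (log2 fold change 2.18, SE 0.13, adjusted p = 1.8e-06), 4.52-fold higher and the largest rise of the 58. Hsp90ab1, the constitutive form, had 1475, 1437 and 1639 CPM in late cKO hearts, against 1447, 1403 and 1454 CPM in late controls (log2 fold change 0.08, SE 0.12, adjusted p = 0.57). The groups of Hsp90aa1 lay far apart, whereas those of Hsp90ab1 overlapped. A nominal 95% interval for the log2 fold change of Hsp90ab1 was -0.15 to 0.31. It used a normal quantile, so it is narrower than the F test with so few hearts implies. The summed 90 kDa level was 1.22-fold higher, with 1775 to 1948 CPM in late cKO hearts and 1472 to 1534 CPM in late controls.

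**Figure D3:**
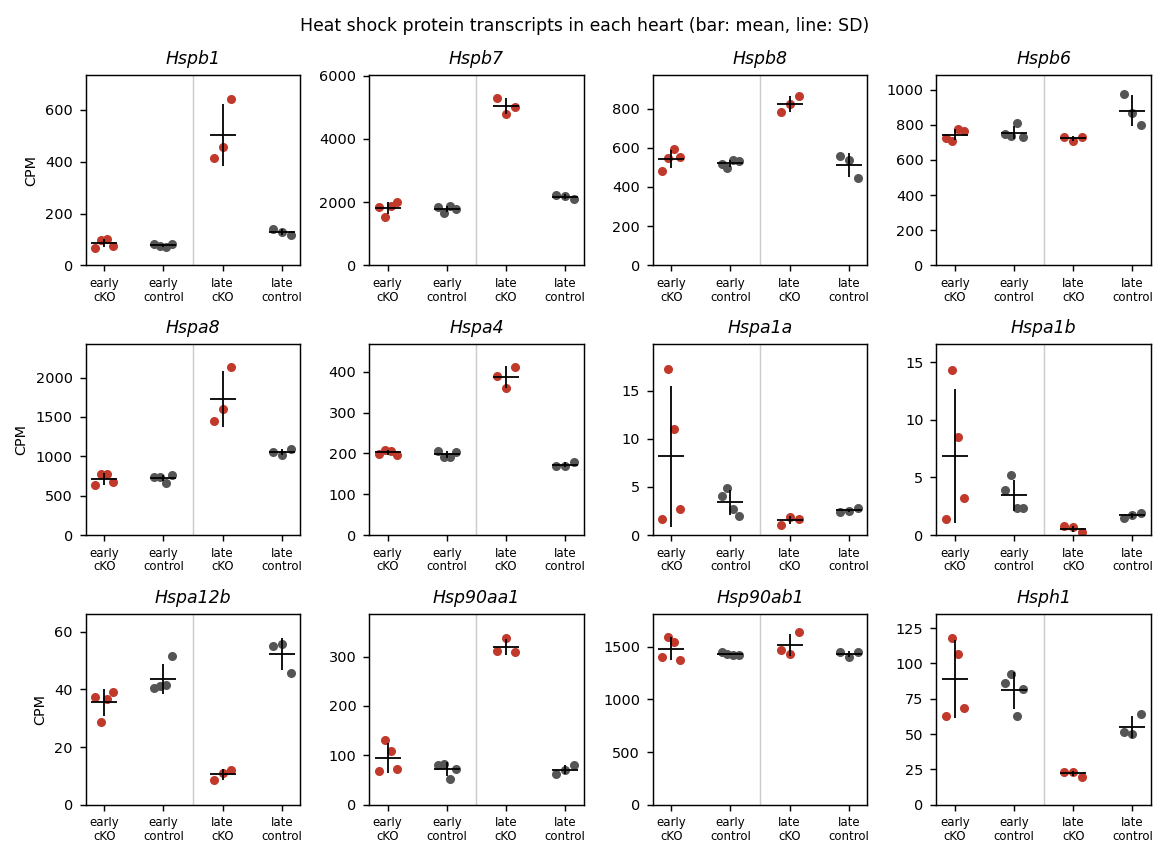
CPM of 12 heat shock protein genes in every heart, with the cKO hearts (red) left of their controls (grey) at each time; horizontal bars are means and vertical lines SD, each axis starts at 0, and early and late CPM come from separate tables that are not compared. Late cKO hearts lie above late controls for Hspb1, Hspb7, Hspb8, Hspa8, Hspa4 and Hsp90aa1, and below them for Hspb6, Hspa1a, Hspa1b, Hspa12b and Hsph1.

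J-proteins bring Hsp70 to its clients, and in class A Dnaja1 and Dnaja2 are its general cytosolic partners. Dnaja1 had 22.8, 21.7 and 23.7 CPM in late cKO hearts, against 34.5, 34.5 and 42.2 CPM in late controls (log2 fold change -0.70, SE 0.12, adjusted p = 0.000888). Dnaja2 had 334, 276 and 286 CPM in late cKO hearts, against 238, 226 and 232 CPM in late controls (log2 fold change 0.36, SE 0.12, adjusted p = 0.0209). They did not overlap between groups, Dnaja1 being lower and Dnaja2 higher in cKO hearts. Of the 8629 annotated exon bases of Dnaja1, 931 are shared with other genes, among them Smu1 on the opposite strand. Reads there cannot be assigned. The Dnaja2 call was lost without cKO replicate 1, control replicate 2 or control replicate 3 (adjusted p = 0.0716 to 0.0966). The mitochondrial Dnaja3 and the class A gene Dnaja4 did not pass the test.

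In class B, Dnajb6, which suppresses protein aggregation and is mutated in a human limb-girdle muscular dystrophy, had 35.4, 33.9 and 29.4 CPM in late cKO hearts, against 15.7, 16.3 and 16.4 CPM in late controls (log2 fold change 1.03, SE 0.12, adjusted p = 6.89e-05). Dnajb9, an endoplasmic reticulum partner of BiP, had 71.5, 64.6 and 54.0 CPM in late cKO hearts, against 29.6, 27.5 and 37.0 CPM in late controls (log2 fold change 1.01, SE 0.15, adjusted p = 0.000383). Dnajb14, anchored in the endoplasmic reticulum membrane with its J domain in the cytosol, had 26.4, 32.1 and 32.3 CPM in late cKO hearts, against 14.2, 15.9 and 16.2 CPM in late controls (log2 fold change 0.97, SE 0.13, adjusted p = 0.000167). All cKO hearts were above all controls in these genes. Dnajb12, a relative of Dnajb14, rose by 0.55 on the log2 scale, and Dnajb4 and Dnajb11 by 0.50 and 0.56. Dnajb2 fell (log2 fold change -0.46, adjusted p = 0.00545). Dnajb1, the inducible partner, had 22.2, 24.4 and 30.6 CPM in late cKO hearts, against 19.9, 22.4 and 27.6 CPM in late controls (log2 fold change 0.14, SE 0.17, adjusted p = 0.466), with overlapping groups, and Dnajb5 did not pass either.

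Class C J-proteins share only the J domain and have specialised roles. Dnajc28 fell most of all 58 genes, with 5.63, 4.92 and 4.63 CPM in late cKO hearts, against 40.6, 37.7 and 41.8 CPM in late controls (log2 fold change -2.98, SE 0.13, adjusted p = 4.61e-07), a 7.90-fold lower level. Dnajc12, a co-chaperone of aromatic amino acid hydroxylases, had 2.65, 2.64 and 2.67 CPM in late cKO hearts, against 7.26, 6.26 and 5.73 CPM in late controls (log2 fold change -1.27, SE 0.17, adjusted p = 0.000158). The groups of these genes were far apart. Dnajc19, a mitochondrial inner membrane protein mutated in a human dilated cardiomyopathy with ataxia, had 13.4, 15.2 and 22.7 CPM in late cKO hearts, against 39.5, 36.2 and 33.0 CPM in late controls (log2 fold change -1.09, SE 0.19, adjusted p = 0.000978). Its cKO replicate 3 lay nearest to the controls, and without that heart its log2 fold change was -1.33. Its exons share 178 bases with Fxr1 on the opposite strand. Dnajc27, a Rab-like GTPase with a J domain, fell (log2 fold change -1.05, SE 0.15, adjusted p = 0.000226), as did Dnajc25 (log2 fold change -0.74, SE 0.11, adjusted p = 0.000307) and the mitochondrial Dnajc30 (log2 fold change -0.43, adjusted p = 0.0255).

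After Dnajc2, the class C gene with the largest rise was Dnajc5, the cysteine string protein of secretory vesicles, with 189.9, 181 and 152 CPM in late cKO hearts, against 80.3, 73.9 and 83.1 CPM in late controls (log2 fold change 1.14, SE 0.12, adjusted p = 4.85e-05). Dnajc11, a mitochondrial protein associated with the cristae organising complex, had 113, 120.2 and 133 CPM in late cKO hearts, against 69.1, 71.8 and 64.0 CPM in late controls (log2 fold change 0.84, SE 0.11, adjusted p = 0.00019). Neither overlapped between groups. Dnajc14 (0.77), Dnajc15 (0.76), Dnajc17 (0.76), Dnajc8 (0.69), Dnajc24 (0.49), Dnajc9 (0.45), Dnajc3 (0.40) and Dnajc10 (0.36) also rose, with log2 fold changes in brackets. The call of Dnajc10 was lost without cKO replicate 1 or 2 or any one control (adjusted p = 0.0693 to 0.122), and that of Dnajc24 without cKO replicate 2 or 3 or any one control (adjusted p = 0.0572 to 0.130). The call of Dnajc30 was lost without cKO or control replicate 1 or 2 (adjusted p = 0.0716 to 0.104). Those of Dnajc17, without control replicate 2 or 3 (adjusted p = 0.0564 and 0.0606), of Dnajc9, without control replicate 3 (adjusted p = 0.0592), and of Dnajc3, without control replicate 2 (adjusted p = 0.0506), were lost as well. The 7 that did not pass were Dnajc1, Dnajc4, Dnajc7, Dnajc13, Dnajc16, Dnajc18 and Dnajc21, of which Dnajc13 passed without cKO replicate 3 (adjusted p = 0.0202).

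By the compartments assigned here, 4 of the 6 endoplasmic reticulum members rose and 0 fell (Dnajb9, Dnajb11, Dnajc3 and Dnajc10, median log2 fold change 0.38). Of the 5 mitochondrial members Dnajc11 and Dnajc15 rose and Dnajc19 and Dnajc30 fell (median 0.11). Among the 47 others 21 rose and 11 fell (median 0.22). These were not checked gene by gene for either compartment. They include Dnajb14, anchored in the endoplasmic reticulum membrane, and Dnajc28, which fell most. Of all genes tested 31.8% rose and 33.2% fell (median -0.02), and with 6 and 5 genes a single gene moves such a share widely.

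Levels per length ranked the same genes first in both sets of controls. In late controls Hspb7 had 787 CPM per kb of exon, followed by Hsp90ab1 (478), Hspb6 (383), Hspb8 (263) and Hspa8 (246). In late cKO hearts Hspb7 had 1817 CPM per kb, followed by Hsp90ab1 (506), Hspb1 (489), Hspb8 (422) and Hspa8 (401). Hspb1 thus ranked 3 in late cKO hearts, where it ranked 6 in late controls at 125 CPM per kb. The order rests on means and neighbours such as Hspb8 and Hspa8 were not tested against each other.

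Summed over genes, the 58 members made up 1.29% to 1.39% of all counts in late cKO hearts, against 0.867% to 0.909% in late controls, and 0.732% to 0.863% in early cKO hearts, against 0.770% to 0.806% in early controls. The late sums did not overlap and the early ones did. The ratio of mean summed CPM, late cKO over late control, was 1.59 for all members, 1.35 without Hspb7 and 1.29 without Hspb7 and Hspa8. By family it was 1.91 for the small heat shock genes (6896 to 7451 CPM in late cKO hearts and 3522 to 3991 CPM in late controls), 1.61 for the 70 kDa family (1998 to 2685 CPM in late cKO hearts and 1362 to 1449 CPM in late controls) and 1.25 for the J-proteins (2334 to 2439 CPM in late cKO hearts and 1863 to 1935 CPM in late controls). Single genes made up most of the first sums. Hspb7 averaged 5032 CPM in late cKO hearts and 2180 CPM in late controls, and Hspa8 1726 and 1057 CPM. The ratios of these families without Hspb7 or Hspa8 were not computed.

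The difference between the late and the early change, tested over all 14 libraries, passed for 40 of the 58 genes, 27 with a higher and 13 with a lower late change. Of the members 46.6% thus had a higher and 22.4% a lower late change, against 29.8% and 31.3% of the 14555 genes tested, of which 61.2% passed in either direction. The smallest p belonged to Dnajc28, with a difference of -2.83 (SE 0.11, adjusted p = 5.25e-11). It was followed by Hspa4 with 1.14 (SE 0.10, adjusted p = 1.02e-07), Dnajc5 with 1.18 (SE 0.11, adjusted p = 2.56e-07) and Hspa12b with -1.9996 (SE 0.20, adjusted p = 4.03e-07). Dnajb14 had a difference of 1.21 (SE 0.13, adjusted p = 1.3e-06) and Hspb7 one of 1.20 (SE 0.13, adjusted p = 1.48e-06). Hspa12b and Dnajc28 had lower cKO values at both times, and Dnajb14 changed sides, with an early log2 fold change of -0.23 (adjusted p = 0.312) and a late one of 0.97.

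The genes that were high in early cKO replicates 2 and 3 differed in direction in the late hearts, which are other samples. Those set beside the inducible pair were chosen after their early values were seen. These early values also enter the test of the difference. The difference between times was -1.98 (SE 0.81, adjusted p = 0.0454) for Hspa1a, -2.59 (SE 0.85, adjusted p = 0.0152) for Hspa1b and -1.44 (SE 0.27, adjusted p = 0.000292) for Hsph1. It was 1.81 (SE 0.28, adjusted p = 4.07e-05) for Hsp90aa1 and -0.32 (SE 0.28, adjusted p = 0.336) for Dnajb1. The Hspa1a difference was lost with DESeq2 (adjusted p = 0.0626), the replicate block (adjusted p = 0.0538) and robust dispersion (adjusted p = 0.0600). It was also lost when any single heart was left out other than early cKO replicates 1 and 4 and early control replicate 2. Without early cKO replicate 2 it was -1.34 (adjusted p = 0.116). Without that heart the Hspa1b difference was -1.97 (adjusted p = 0.0306). Among the inducible pair and the genes chosen beside it, only Hsp90aa1 rose late. Hspa1a, Hspa1b, Hsph1 and Dnaja1 fell late, and Dnajb1 did not pass at either time. Of other members that were highest in early cKO replicates 2 and 3, Hspb1, Hspa8, Hspa4 and Dnajc2 rose late and Dnajb2 fell.

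**Figure D4:**
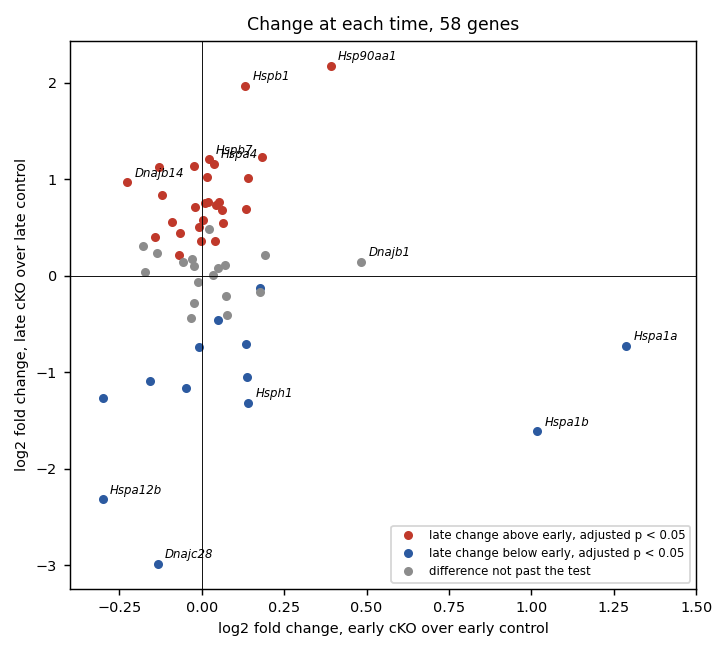
Log2 fold change of cKO over control at the early time (horizontal) and the late time (vertical) for the 58 genes, coloured by the test of the difference between times. Most genes lie near 0 on the early axis and spread from -2.98 to 2.18 on the late axis, while Hspa1a and Hspa1b lie to the right of 1 early and below 0 late.

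Other genes of the chaperone network were read from a list of 47 regulators, co-chaperones, crystallins and chaperonin subunits, of which 44 were tested at each time. Early, 0 were called. Late, 21 rose, 7 fell and 16 did not pass, a share of 63.6% where 65.0% of all genes tested were called. By direction, 47.7% of the 44 rose and 15.9% fell, against 31.8% and 33.2% of all genes tested. Of the regulators Hsf1, the main heat shock transcription factor, fell with 24.8, 18.5 and 23.4 CPM in late cKO hearts, against 37.9, 38.1 and 37.3 CPM in late controls (log2 fold change -0.76, SE 0.13, adjusted p = 0.000836), with no overlap between groups. Hsf2 (0.71), Hsf4 (1.75) and the HSF1-binding protein gene Hsbp1 (0.40) rose on the log2 scale. Hsf5 and Cryaa were too low to be tested, and Hikeshi was not matched by symbol.

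Co-chaperones went both ways: 9 of 25 rose (36%), 6 fell (24%) and 10 did not pass, against 31.8% higher and 33.2% lower of all genes tested. The immunophilin Fkbp4, which helps Hsp90 to activate steroid receptors, had 38.7, 31.1 and 45.4 CPM in late cKO hearts, against 378, 357 and 330.1 CPM in late controls (log2 fold change -3.21, SE 0.16, adjusted p = 7.79e-07), 9.24-fold lower. Its relative Fkbp5, which restrains steroid receptors and is itself a glucocorticoid-induced gene, had 161, 149.7 and 151 CPM in late cKO hearts, against 44.8, 26.0 and 22.7 CPM in late controls (log2 fold change 2.30, SE 0.24, adjusted p = 3.58e-05). The late groups of both genes were far apart and in opposite directions. At the early time Fkbp5 had 11.4, 12.5, 25.8 and 24.5 CPM in early cKO hearts, against 33.2, 38.0, 31.0 and 37.5 CPM in early controls (log2 fold change -0.90, SE 0.22, adjusted p = 0.124), lower in every cKO heart, which did not pass the test. Sugt1, an Hsp90 co-chaperone, rose (log2 fold change 1.40, SE 0.15, adjusted p = 5.11e-05), as did the exchange factor Bag2 (log2 fold change 1.11, SE 0.11, adjusted p = 2.71e-05). Bag3, the partner of Hspb8, had 362, 345 and 324 CPM in late cKO hearts, against 323, 320.1 and 298 CPM in late controls and did not pass (log2 fold change 0.13, SE 0.11, adjusted p = 0.308). The fallers also included the Hsp90 partners Chordc1 (-1.09) and Ahsa2 (-0.72), and the muscle myosin chaperone Unc45b (-0.36).

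All 8 subunits of the chaperonin TRiC, which folds actin and tubulin, rose late, with log2 fold changes from 0.50 for Cct7 to 1.64 for Cct3 (median 1.01); 31.8% of all genes tested were called higher. Cct3 had 297, 322 and 428 CPM in late cKO hearts, against 119, 110.02 and 106 CPM in late controls (log2 fold change 1.64, SE 0.15, adjusted p = 2.18e-05). The smallest p-values after Cct3 were those of Cct8 (log2 fold change 1.07, SE 0.11, adjusted p = 4.09e-05), Cct2 (log2 fold change 1.39, SE 0.15, adjusted p = 4.14e-05) and Cct6a (log2 fold change 0.95, SE 0.11, adjusted p = 5.9e-05). The groups did not overlap for any of the 8. Of the 6 subunits of prefoldin, which delivers actin and tubulin to TRiC, only Pfdn1 rose (0.53) and 5 did not pass the test.

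**Figure D5:**
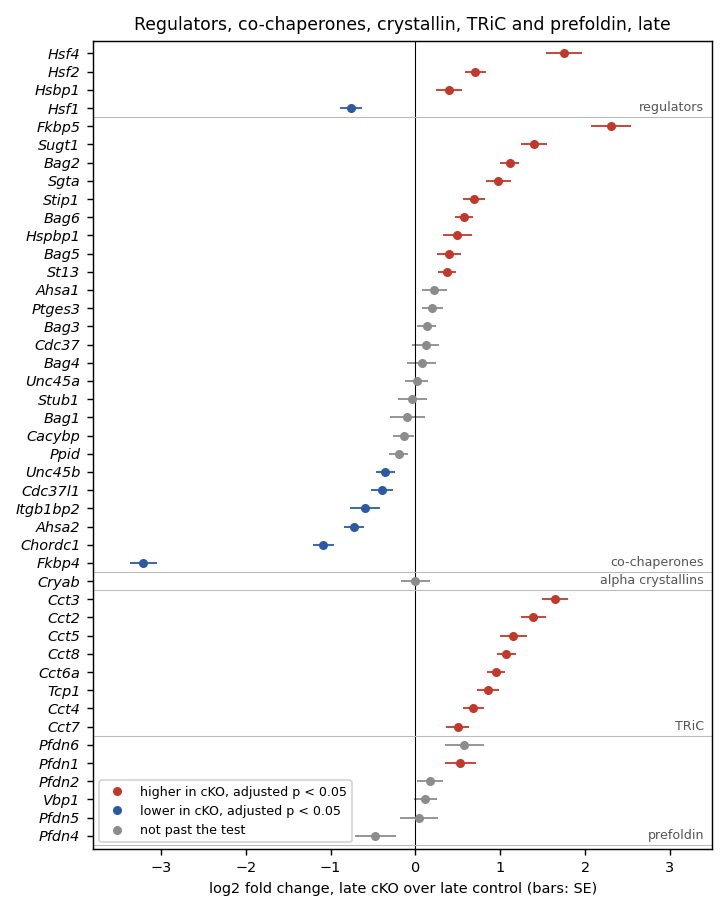
Log2 fold change of late cKO over late control hearts for the 44 tested genes of the wider chaperone network, in 5 groups; points are edgeR estimates and bars their SE. All 8 TRiC genes lie right of 0, while the co-chaperones run from -3.21 for Fkbp4 to 2.30 for Fkbp5.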

How the data were processed

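Poly-A RNA from 14 mouse hearts was sequenced as reads of 100 nt from libraries that do not mark strand, per the labels' protocols. Reads were trimmed with Trimmomatic 0.36 and aligned with STAR 2.6.0c to GRCm38, per the submitters' processing notes; which tool counted the reads, and whether by strand, is not stated in what was used here. The authors deposited raw read counts per gene symbol in 1 table for the early hearts and 1 for the late hearts, and 0 columns were left out. The genes and gene lists were chosen with earlier results of these data known, so no list is independent evidence.

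From the deposited counts, each table was fitted whole with edgeR 4.0.16 in R 4.3.3 (TMM scaling, filterByExpr with a minimum count of 10 and a minimum total of 15, quasi-likelihood F test, Benjamini-Hochberg adjustment over all genes tested, calls at an adjusted p under 0.05). SE was taken as the size of the log2 fold change over the root of the F statistic. The difference between times was fitted over all 14 libraries. Expression per length used the union of exons in GENCODE M21, in which all 58 genes were found. Promoter windows came from RefSeq (GRCm38.p6), with 47 of 58 genes matched by symbol. No pair of libraries of a group agreed within sampling noise.

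Named genes were, per family and time, up to 4 with the smallest p, the 6 largest rises and falls among called J-proteins late, the 6 smallest p for the difference between times, the 5 highest levels per length, Hspa1a and Hspa1b, and up to 8 of the wider list; others named were chosen after their values were seen. The fit was tested on simulated data: among 13417 early genes it found 77% of 1.5-fold and 100% of 3-fold changes, with 8.29% of calls on unchanged genes; among 14738 late genes 25% and 92%, with 10.7%; for the difference, among 14254 genes, 18% and 93%, with 7.5%. Few genes were changed in these simulations, so the shares for late genes and for the difference do not carry over to the real calls. Alternatives were DESeq2 1.42.0, RLE scaling, total counts, no filter, a replicate block, leaving out each heart, 1 fit over all hearts, robust dispersion, and early cKO replicate 4 as a control. The depth of each library sets the precision of low genes, and counting error is only part of the SE.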

Additional observations from a re-analysis of the deposited data

Results flagged for a closer look

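In 3 of the 72 early groups of 4 hearts examined for the 36 members with named values, 1 heart lay far from the other 3: Dnajb5 was lowest in early control replicate 2 at 69.0 CPM, where the group reached 86.1 CPM. Hsp90ab1 was highest in early control replicate 1 at 1451 CPM, in a group that began at 1425 CPM. Hspa12b was highest in early control replicate 4 at 51.6 CPM, in a group that began at 40.5 CPM. Chance alone marks about 1 in 20 such groups, so 3 of 72 is not more than chance gives.

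The late change differed from the early change, by the interaction test over all 14 hearts, most clearly for 6 members. The difference on the log2 scale was -2.83 for Dnajc28, 1.14 for Hspa4, 1.18 for Dnajc5, -1.9996 for Hspa12b, 1.21 for Dnajb14 and 1.20 for Hspb7. Such differences passed for 61.2% of all genes tested.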

How the results depend on the processing

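Early, 0 members were called higher and 0 lower under every alternative run except the fit with no filter on low counts, which called 4 higher and 1 lower among more genes tested; the cause of its lower p-values was not tested. Leaving out 1 heart, late calls ranged from 22 to 27 higher and from 11 to 14 lower, and the difference between times from 36 to 42; early they stayed at 0. DESeq2 called 28 higher and 13 lower late, RLE scaling 27 and 13, total counts 24 and 14. Under total counts the median late log2 fold change of all genes was -0.09 and the median difference between times -0.10, against -0.02 and -0.01 with TMM. Hspb6 was called lower late under total counts (adjusted p = 0.0192) and in the fit over all hearts (adjusted p = 0.0105), and Dnaja4 higher with DESeq2 (adjusted p = 0.0465). Small early values changed sign when 1 heart was left out: Hsph1 ranged from -0.0244 (without cKO replicate 2) to 0.274, Dnaja2 from -0.0288 to 0.0396, Hspb7 from -0.0307 to 0.0929, Hspb6 from -0.0464 to 0.0119 and Hspa8 from -0.0649 to 0.0337. With early cKO replicate 4 as a control Hspb7 was -0.0658 and Hspa8 0.0264. Hearts that share a replicate number did not deviate together (correlations of deviations -0.09 to -0.04 early and -0.41 to -0.06 late), so the numbers do not pair them. With the replicate block 0 members were called early, 22 higher and 12 lower late, and 35 for the difference between times. Depth limits Hspa1b most, with as few as 7 counts in a late cKO library.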
